A study of Mus musculus with 34 samples.

Results

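The genes described here are the cyclins of G1 and S phase and the kinases they switch on: the D cyclins Ccnd1, Ccnd2 and Ccnd3, the E cyclins Ccne1 and Ccne2, the S-phase cyclin Ccna2, and the kinases Cdk2, Cdk4 and Cdk6. They were chosen by name, and all 9 were measured, as 9 of the 18193 genes that had a probe set of their own. Between them they had 26 of the 45037 probe sets of the array, and the probe set with the highest mean signal stood for each gene. All 9 passed the filter on low signal, which kept 12723 genes.

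A cyclin is the regulatory subunit of a cyclin-dependent kinase (CDK), which has little activity without it. D cyclins with Cdk4 or Cdk6 answer to growth signals and begin the phosphorylation of the pocket proteins Rb1, p107 (encoded by Rbl1) and p130 (encoded by Rbl2), and E cyclins with Cdk2 continue it at the start of DNA replication. Unphosphorylated pocket proteins hold E2F transcription factors in check, and genes for E and A cyclins are textbook E2F targets. The fetal liver is at this stage the main blood-forming organ, filled with dividing red cell precursors.

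Total RNA of 34 samples of whole, untreated mouse fetal liver, labelled embryonic day 14.5 (the series design gives a range that begins earlier), was hybridised to 1 biotin-labelled Affymetrix array each. The 8 genotypes were wild type (2 arrays), p107 KO (1), p130 KO (3), Rb1 KO (2), p107;p130 DKO (6), Rb1;p107 DKO (5), Rb1;p130 DKO (9) and Rb1;p107;p130 TKO (6). DKO stands for double knockout and TKO for triple knockout. The labels give no strain, allele or Cre driver. They also do not say whether each array is a separate animal, so a p-value here covers only the spread among these arrays, and their number limits the precision.

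The signal is the MAS5 intensity of a probe set on a linear scale, and changes are differences of log2(signal + 32), which understate folds of dim probe sets. Arrays 8 and 9 of Rb1;p130 DKO stood apart from the other 7 in Ccne2, and results that turn on them are given without them too. The arrays also fell into 3 array groups of 15, 10 and 9, inferred from the signals without use of genotype and not a recorded batch. Genotypes were unevenly spread over them: array group 2 held 4 of 5 arrays of the Rb1 and p107 double knockout and 0 of 9 of the Rb1 and p130 double knockout. Values within array groups therefore stand beside the results. The targeted genes bore out the labels for Rb1 (756.0 to 1745.9 where deleted, 5208.2 to 9085.4 elsewhere) and Rbl1 (43.9 to 139.4 against 1185.0 to 2713.2), whereas the dim Rbl2 overlapped (105.5 to 265.4 against 246.2 to 481.3). Markers of hepatocytes (9 of 9) and red cells (7 of 7) reached a signal of 100 on an array. So did those of every other list, lymphoid ones included (6 of 7), apart from the B cell marker Cd79a. Reaching this signal therefore does not tell cell types apart.

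Promoter sequence, 250 bases before to 50 after the start site, was at hand from RefSeq (GRCm38.p6) for 5 of the 9 genes. It was searched on both strands for 4 forms of the E2F motif, TTTGGCGC, TTTCCCGC, TTTCGCGC and TTTGCCGC, none of which contains another. Of 32851 mouse promoters of that length, 744 held one (2.26%). Among the 6 promoters of Ccnd3 (2 start sites), Ccne1, Cdk2, Cdk4 and Cdk6, the Cdk2 promoter held 1, TTTCCCGC on the other strand, starting 140 bases before the start site. The promoters of Ccne1, without a match, and of Cdk2, with its match in capitals, are printed, both from the minus strand. No sequence was at hand for Ccnd1, Ccnd2, Ccne2 and Ccna2, and a link between motif and change was not tested. A match is only a match of letters, and its absence says nothing beyond this window.
Ccne1, chr7:38107441-38107740: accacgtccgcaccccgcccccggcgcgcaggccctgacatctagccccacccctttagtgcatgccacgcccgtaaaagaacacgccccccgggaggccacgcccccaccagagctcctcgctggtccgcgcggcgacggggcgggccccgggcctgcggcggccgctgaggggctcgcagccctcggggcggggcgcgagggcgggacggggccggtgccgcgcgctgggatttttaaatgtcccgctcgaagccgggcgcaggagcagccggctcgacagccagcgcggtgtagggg
Cdk2, chr10:128705002-128705301: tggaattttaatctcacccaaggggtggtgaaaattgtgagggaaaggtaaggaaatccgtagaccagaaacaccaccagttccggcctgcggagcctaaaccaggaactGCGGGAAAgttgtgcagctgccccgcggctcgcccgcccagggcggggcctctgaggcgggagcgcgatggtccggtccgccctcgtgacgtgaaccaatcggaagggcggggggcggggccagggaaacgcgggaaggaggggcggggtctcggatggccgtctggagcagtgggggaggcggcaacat

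Each pocket protein's loss was first read over all backgrounds, from an additive fit with 1 term each for Rb1, p107 and p130. Rb1 loss compared 22 arrays with 12, p107 loss 18 with 16 and p130 loss 24 with 10. With Rb1 loss, Ccna2 and Cdk2 rose, and no other member was called. Cyclin E1 was the 1 member called with p107 loss, and it fell. No member was called with p130 loss. The threshold for a call was an adjusted p under 0.05 in limma, by the Benjamini-Hochberg method over all 12723 genes.

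In numbers, 2 of the 9 were called higher with Rb1 loss and 0 lower, where 1.75% of all genes were called higher and 0.511% lower. With p107 loss 1 of 9 was called lower and 0 higher, where 0.723% of all genes were called lower and 0.417% higher. With p130 loss 0 of 9 were called by limma, where 0.0157% of all genes were called. At an unadjusted p under 0.05 lay 1 of the 9, beside 1286 of all 12723 genes. The median log2 change of the 9 was -0.04, -0.05 and -0.02 for loss of Rb1, p107 and p130, beside -0.02, 0.00 and 0.03 over all genes.

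**Figure D1:**
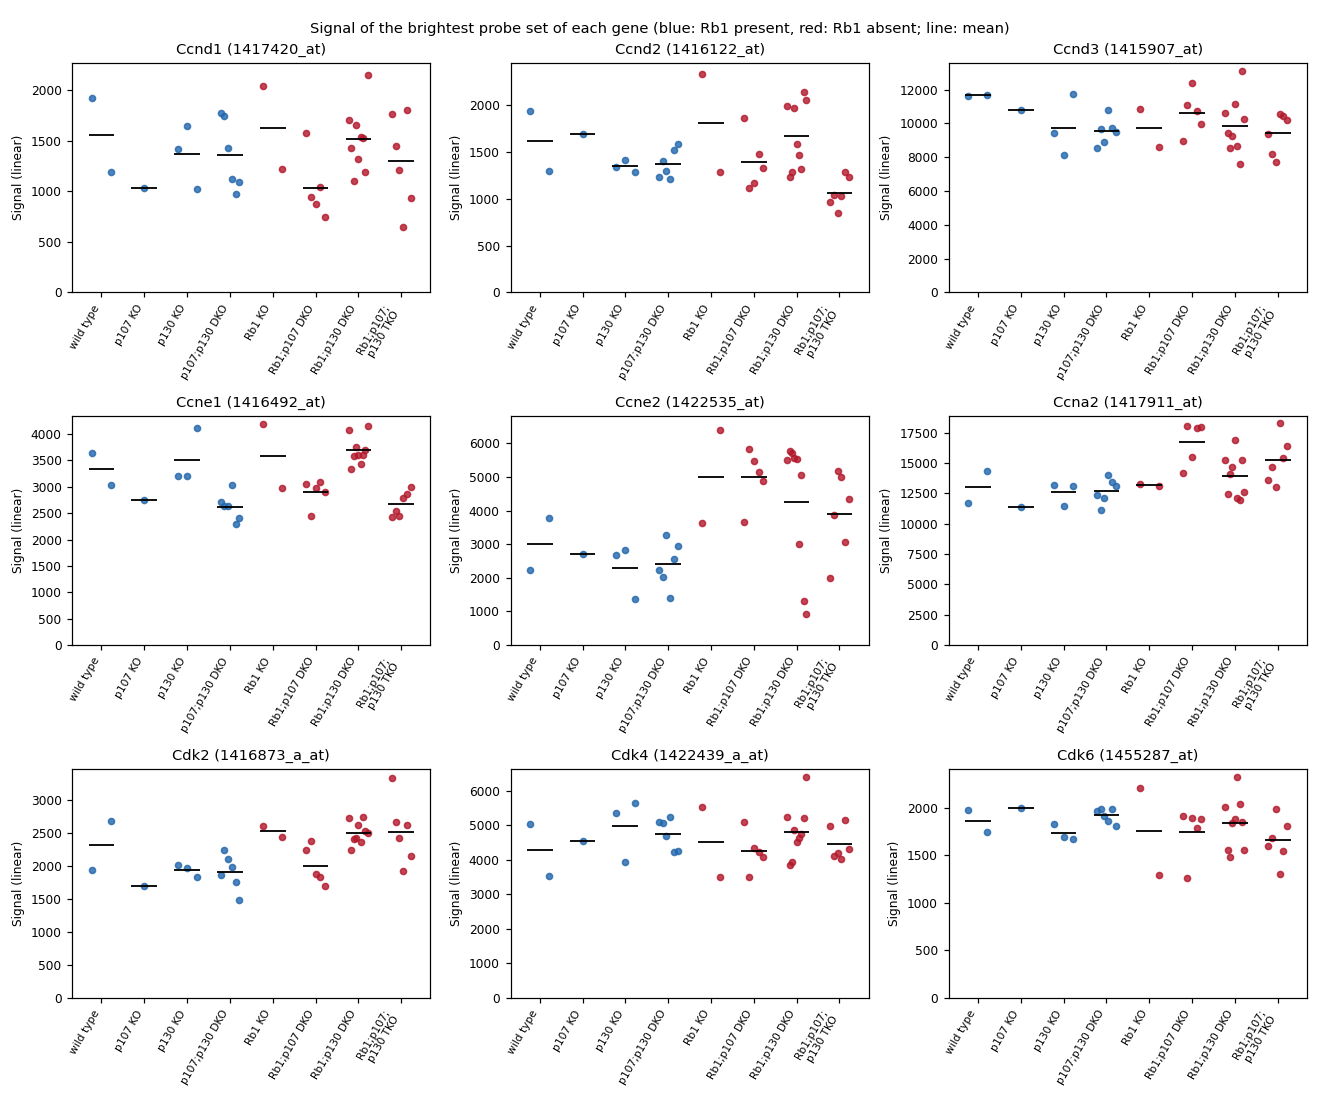
Signal of the brightest probe set of each of the 9 genes on each of the 34 arrays (linear MAS5 signal, axes from 0, 1 panel per gene), by genotype, with the mean as a line; red marks genotypes without Rb1. Ccne2 spans the widest range, 925.1 to 6380.5, and the mean of Ccnd2 is lowest in the triple knockout.

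**Figure D2:**
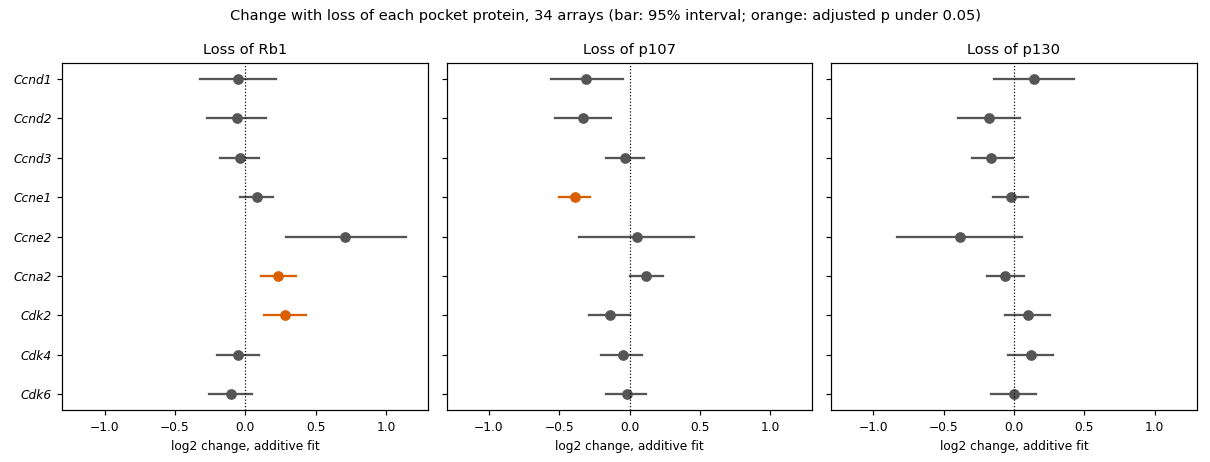
Log2 change of each gene with loss of Rb1, p107 and p130 in the additive fit over 34 arrays; points are estimates, bars 95% intervals, and orange marks an adjusted p under 0.05. Ccna2 (0.23) and Cdk2 (0.28) are orange for Rb1 and Ccne1 (-0.39) for p107, while Ccne2 has the largest estimate for Rb1 (0.71) with the widest interval.

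Among the D cyclins, the partners of Cdk4 and Cdk6, Ccnd2 had its lowest mean signal where all 3 pocket proteins were missing, although no comparison of its brightest probe set was called. On its brightest probe set, triple knockout signals ran from 846.3 to 1281.3 with a median of 1036.5. The p107 and p130 double knockout ran from 1214.7 to 1587.5 (median 1350.0) and the Rb1 and p130 double knockout from 1237.3 to 2135.4 (median 1582.0). The 5 arrays of the Rb1 and p107 double knockout gave 1867.4, 1116.4, 1170.2, 1474.1 and 1329.8. All 6 triple knockout arrays lay under the mean of each of these groups, with some overlap in signal with each.

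The remaining genotypes were scattered. Wild type gave 1940.7 and 1297.7, Rb1 KO 2331.0 and 1288.7, and the p107 KO array 1695.1. The p130 KO arrays gave 1342.0, 1409.0 and 1290.6. By mean the order ran from Rb1 KO (1809.8) through the p107 KO array, the Rb1 and p130 double knockout (1672.1 ± 365.1 SD, n = 9), wild type, the Rb1 and p107 double knockout, the p107 and p130 double knockout and p130 KO (1347.2 ± 59.4, n = 3) to the triple knockout (1065.7 ± 164.5, n = 6). Neighbours above the triple knockout differed by less than their spread.

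At the level of the gene, the differences of Ccnd2 did not pass the test over all genes. Against the Rb1 and p130 double knockout, the triple knockout was lower by -0.62 ± 0.14 (log2, SE, limma adjusted p = 0.218), 1.53-fold. Against the p107 and p130 double knockout the difference was -0.37 ± 0.16 (adjusted p = 0.706), and against the Rb1 and p107 double knockout -0.36 ± 0.16 (adjusted p = 0.660). With p107 loss Ccnd2 changed within array groups by -0.13 (5 arrays without p107 against 10), 0.39 (9 against 1) and -0.66 (4 against 5). The sign therefore did not hold. With array group as a block the change was -0.31 (limma adjusted p = 0.23). Over all backgrounds without the block it was -0.33 ± 0.10 (adjusted p = 0.0906), with 15 of 18 arrays without p107 under the mean of those with it. This change was not called, and single arrays decided that. It passed without array 2 of wild type (-0.38, adjusted p = 0.0410) and without array 1 of the Rb1 and p107 double knockout (-0.36, adjusted p = 0.0492).

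Other Ccnd2 probe sets passed. Of the 7 probe sets, 6 passed the filter and were fitted on their own among 23418. Probe set 1430127_a_at ran from 544.3 to 1311.9 (median 819.0) on the 18 arrays without p107 and from 736.7 to 1740.4 (median 1101.6) on the 16 with it. The groups overlapped, but 17 of 18 lay under the mean of the arrays with p107. It fell by 0.53 ± 0.11 on the log2 scale (limma adjusted p = 0.00912 over probe sets), where 0.431% of probe sets were called lower. With array group as a block the change was -0.37 (adjusted p = 0.129). The other 5 probe sets gave -0.47 to -0.01, none of them called.

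Against the Rb1 and p130 double knockout, 2 Ccnd2 probe sets fell in the triple knockout, where 0.0512% of all probe sets did. Probe set 1455956_x_at ran from 364.1 to 540.0 (median 481.1) in the triple knockout and from 617.5 to 1424.5 (median 816.1) in the double knockout, without overlap. Its change was -0.85 ± 0.16 (adjusted p = 0.0170). Probe set 1430127_a_at ran from 544.3 to 874.4 (median 623.1) against 948.7 to 1475.8 (median 1131.3), also without overlap, with a change of -0.77 ± 0.16 (adjusted p = 0.0407).

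Both calls depended on single arrays and on the block. The first was lost without array 1 (-0.78, adjusted p = 0.0781), array 3 (-0.82, 0.0692) or array 4 (-0.84, 0.0528) of the triple knockout, with array group as a block (-0.79, 0.0504) and without arrays 8 and 9 of the double knockout together (-0.70, 0.0634). The second was lost in 19 of 34 fits that left out 1 array, with changes of -0.78 to -0.71 and adjusted p-values up to 0.201. These were arrays 1 to 3 of p130 KO, 1 to 5 of the p107 and p130 double knockout, 4 and 5 of the Rb1 and p107 double knockout, 1, 4, 5, 6 and 8 of Rb1;p130 DKO and 1 to 4 of the triple knockout. Array group as a block gave -0.63 (adjusted p = 0.0798), and the fit without arrays 8 and 9 of the double knockout -0.71 (adjusted p = 0.127). On the gene's brightest probe set, the difference was -0.30 within array group 1 (1 triple knockout array against 5) and -0.83 within array group 3 (3 against 4).

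The interaction of Rb1 and p107 loss where p130 is absent asks whether the triple knockout departs from the sum of the double knockout effects. For Ccnd2 it was -0.64 ± 0.24 (95% interval -1.13 to -0.16, unadjusted p = 0.0107), the lowest of the 9, but limma called 0 of 12723 genes (0.0%), with 209 at an unadjusted p under 0.05. All 6 tested Ccnd2 probe sets had a negative term, from -0.94 to -0.29. They measure the same RNA and are not separate evidence.

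**Figure D3:**
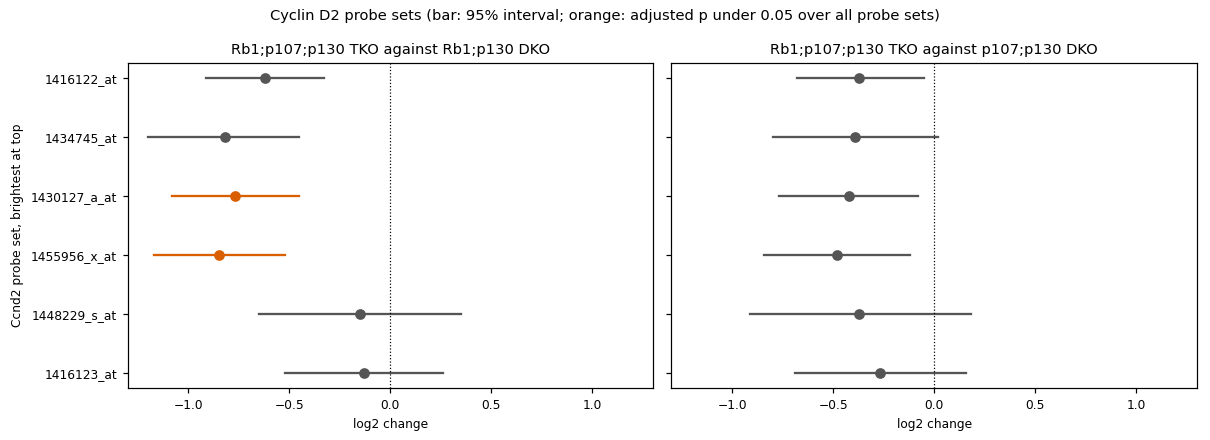
Log2 change of the 6 tested Ccnd2 probe sets in the triple knockout, against the Rb1 and p130 double knockout (left) and the p107 and p130 double knockout (right); bars are 95% intervals and orange marks an adjusted p under 0.05 over all probe sets. All 12 estimates lie below 0, and 2 on the left are orange (-0.77 and -0.85).

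Ccnd1 and Ccnd3 were called in none of the 12 comparisons. Ccnd1 signals ran from 651.8 to 2151.4 over the 34 arrays, and 59.1% of their variance on the log2 scale lay between array groups against 24.7% between genotypes. With p107 loss its change was -0.31 ± 0.13 (adjusted p = 0.211), from a median of 1479.4 to 1109.3. Within array groups it was 0.10, -0.11 and -0.05, so the sign did not hold.

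Ccnd3 was steady, from 7607.2 to 13125.1. Both wild type arrays, at 11592.5 and 11703.1, lay above all 6 arrays of the triple knockout (7732.8 to 10575.5, median 9791.4) and all 6 of the p107 and p130 double knockout (8558.4 to 10789.4, median 9584.2). Neither difference was called, at -0.32 ± 0.16 and -0.29 ± 0.16 (adjusted p = 1.0 in each). Of all genes, 2.23% and 1.63% lay lower without overlap in these comparisons. With p130 loss the change of Ccnd3 was -0.16 ± 0.07 (95% interval -0.30 to -0.01, adjusted p = 0.483).

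The E cyclins are the partners of Cdk2 at the entry into S phase. Ccne1 fell with loss of p107, and its mean was lower in each genotype without p107 than in any with it. Ccne2 signals were mostly higher where Rb1 was missing, but that change was not called, and the difference between both cyclins was not tested. Over the 34 arrays their log2 signals correlated at r = -0.11 (rho = 0.01), as a description, since the arrays share genotypes and array groups.

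Ccne1 signals were 3634.8 and 3026.7 in wild type, 4192.1 and 2980.7 in Rb1 KO, and 3205.8, 3197.9 and 4107.7 in p130 KO. The Rb1 and p130 double knockout (9 arrays) ran from 3329.0 to 4149.9 with a median of 3604.7. These 16 arrays with p107 therefore ran from 2980.7 to 4192.1, with a median of 3601.8.

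Where p107 was missing, Ccne1 signals were lower. The p107 KO array stood at 2755.6, and the Rb1 and p107 double knockout at 3050.5, 2452.4, 2980.1, 3085.2 and 2902.6. The p107 and p130 double knockout ran from 2298.1 to 3029.9 (median 2640.0) and the triple knockout from 2426.3 to 2992.4 (median 2666.2). All 18 arrays without p107 lay under the mean of those with it, and 14 lay under every one of them.

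By mean, the 4 genotypes with p107 came first: the Rb1 and p130 double knockout (3692.7 ± 271.9 SD, n = 9), Rb1 KO (3586.4), p130 KO (3503.8 ± 523.0, n = 3) and wild type (3330.8). Then came the Rb1 and p107 double knockout (2894.2 ± 256.7, n = 5), the p107 KO array, the triple knockout (2677.5 ± 238.9, n = 6) and the p107 and p130 double knockout (2620.3 ± 254.3, n = 6). Neighbours on the same side of that order differed by less than their spread.

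Ccne1 fell with p107 loss by 0.39 ± 0.06 on the log2 scale (95% interval -0.50 to -0.28), 1.31-fold, with a limma adjusted p of 9.05e-05. It stayed called in 34 of 34 fits that left out 1 array, with changes of -0.42 to -0.37. Within array groups the change was -0.30 (5 arrays without p107 against 10), -0.24 (9 against 1) and -0.55 (4 against 5), and with array group as a block -0.37 (adjusted p = 0.00120). Loss of Rb1 gave 0.08 ± 0.06 (adjusted p = 0.684) and loss of p130 -0.02 ± 0.06 (adjusted p = 0.919). Whole livers were measured, so fewer cells of a type that makes cyclin E1 and less of its RNA per cell cannot be told apart.

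Among the 9 lists of markers of other cells, 1 marker was called with p107 loss. Of 7 mesenchymal markers, all 7 had a change above 0 (median 0.27) and 1 was called (0.417% of all genes), Pdgfrb, a growth factor receptor of stromal cells (0.67 ± 0.11, adjusted p = 8.69e-04). Their summed signal ran from 6660 to 23915 (median 12566) without p107 and from 5158 to 21394 (median 9877) with it. All 7 progenitor markers also lay above 0 (median 0.15, none called by limma, 2 at an unadjusted p under 0.05), with sums of 5950 to 8254 against 5151 to 7845. Of 4 tested lymphoid markers 3 lay above 0 (median 0.26, none called by limma, 3 at an unadjusted p under 0.05), and all 7 on the array had sums of 384 to 928 against 395 to 726. Of 8 neutrophil markers only 1 lay above 0 (median -0.15, none called by limma, 1 at an unadjusted p under 0.05), with sums of 39032 to 99388 against 42571 to 104276. For scale, 2168 of all 12723 genes lay at an unadjusted p under 0.05 with p107 loss. Red cell markers summed to 106887 to 183590 without p107 and 113617 to 172144 with it. Their part in the fall of Ccne1 was not tested.

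In single pairs of genotypes the difference was of like size but mostly uncalled. The triple knockout lay under the Rb1 and p130 double knockout without overlap, as did 0.0472% of all genes, by -0.46 ± 0.09 (1.38-fold, limma adjusted p = 0.0368), and Ccne1 was 1 of the 3 genes called there (0.0236%, all lower). The difference was -0.35 within array group 1 (1 array against 5) and -0.58 within array group 3 (3 against 4), and the call held with array group as a block (-0.44, adjusted p = 0.0453). Without arrays 8 and 9 of the double knockout it was -0.44 (adjusted p = 0.0706), and with only the arrays of both groups in the fit -0.46 (adjusted p = 0.159).

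Leaving out 1 array ended this call in 13 of 34 fits, while the change stayed between -0.49 and -0.43. The adjusted p rose to 0.166, 0.176, 0.163 and 0.0754 without triple knockout arrays 1, 2, 3 and 4. It rose to 0.113, 0.0637, 0.0663 and 0.0701 without arrays 1, 4, 5 and 8 of Rb1;p130 DKO. It was 0.0516, 0.0536 and 0.0535 without arrays 1, 2 and 3 of the p107 and p130 double knockout, and 0.0520 and 0.0541 without arrays 3 and 5 of the Rb1 and p107 double knockout.

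The p107 and p130 double knockout lay under p130 KO without overlap, as did 1.06% of all genes, by -0.41 ± 0.12 (adjusted p = 0.885). Against wild type the p107 and p130 double knockout gave -0.34 ± 0.14 and the triple knockout -0.31 ± 0.14 (adjusted p = 1.0 and 0.997). These comparisons share arrays and are not separate evidence. The effect of p107 loss with and without Rb1, where p130 is absent, differed by -0.05 ± 0.15 (95% interval -0.35 to 0.25).

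The second Ccne1 probe set, 1441910_x_at, ran from 1435.8 to 7364.4 over the 34 arrays, with the single p107 KO array the highest. Some genotypes spread widely, such as the Rb1 and p107 double knockout (1435.8 to 6143.7). The median of this probe set was 1821.2 without p107 and 3589.8 with it, and 2146.1 without p130 and 4181.2 with it. Its changes were -0.52 ± 0.20 with p107 loss (adjusted p = 0.207) and -0.61 ± 0.22 with p130 loss (adjusted p = 0.431). With the mean of both probe sets the gene's change with p107 loss was -0.46 (adjusted p = 0.0357), and the triple knockout against the Rb1 and p130 double knockout was -0.51 (adjusted p = 0.586).

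**Figure D4:**
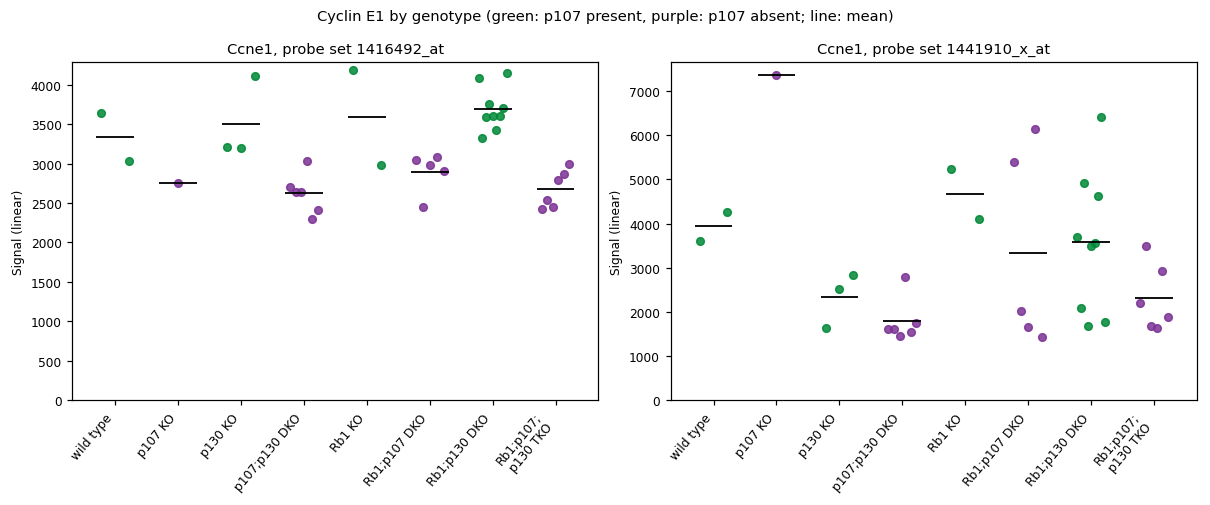
Ccne1 signal on each array by genotype for both of its probe sets (linear MAS5 signal from 0, line at the mean); green marks arrays with p107 and purple arrays without. On the left all 18 purple points lie under the mean of the green ones; on the right the points scatter from 1435.8 to 7364.4 within and between genotypes.

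Ccne2 had the widest range of the 9, with signals from 925.1 to 6380.5. With Rb1 present, it stood at 2223.8 and 3789.0 in wild type, 2697.5 in p107 KO, 2692.8, 2815.3 and 1357.9 in p130 KO, and 1393.3 to 3286.6 (median 2393.7) in the p107 and p130 double knockout. Without Rb1 it was 3637.1 and 6380.5 in Rb1 KO and 3662.4, 5839.0, 5486.2, 5140.4 and 4889.6 in Rb1;p107 DKO. The triple knockout ran from 1983.4 to 5170.0 with a median of 4103.3.

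In the Rb1 and p130 double knockout, Ccne2 split the arrays. Array 6 stood at 3006.9, 6 others between 5069.8 and 5770.3, and arrays 8 and 9 at 1300.9 and 925.1, the lowest signals of the series. Of the 22 arrays without Rb1, 19 lay above the mean of the 12 with it, 15 lay above all of them and 2 below all. By mean, the genotypes without Rb1 ran from Rb1 KO (5008.8) and the Rb1 and p107 double knockout (5003.5 ± 830.9 SD, n = 5) to the Rb1 and p130 double knockout (4265.8 ± 1980.4, n = 9) and the triple knockout (3901.9 ± 1216.5, n = 6). Those with Rb1 ran from wild type (3006.4) through the p107 KO array and the p107 and p130 double knockout (2405.0 ± 677.2, n = 6) to p130 KO (2288.7 ± 808.4, n = 3). Neighbours in this order differed by less than their spread.

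The change of Ccne2 with Rb1 loss, 0.71 ± 0.21 on the log2 scale (1.64-fold, 95% interval 0.29 to 1.14), did not pass over all genes (limma adjusted p = 0.0617). It passed without array 8 (0.78, adjusted p = 0.0163) or 9 (0.80, adjusted p = 0.00409) of the Rb1 and p130 double knockout, or without array 1 of the triple knockout (0.77, adjusted p = 0.0376). Without arrays 8 and 9 together it was 0.89, given with no test because these 2 arrays were set apart for their low Ccne2. With array group as a block it was 0.88 (adjusted p = 8.60e-04), and within the 3 array groups 0.87, 0.85 and 0.93. So the additive term was alike in each array group, although array group 3 held only 2 arrays with Rb1. Single pairs varied more: the triple knockout differed from the p107 and p130 double knockout by 0.31, 0.76 and 1.27 within array groups 1, 2 and 3. The Rb1 and p130 double knockout differed from p130 KO by 1.02 and 0.60 within array groups 1 and 3. Whether the change of Ccne2 with Rb1 loss was called turned on 3 low arrays, all in array group 3, and on the block.

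Pairs of genotypes gave changes above 0 with wide errors. The Rb1 and p130 double knockout differed from p130 KO by 0.72 ± 0.41, Rb1 KO from wild type by 0.72 ± 0.61 and the triple knockout from the p107 and p130 double knockout by 0.67 ± 0.35, none called (adjusted p = 0.958, 1.0 and 0.862). The first of these was 0.39 to 0.96 when 1 array was left out, 1.23 with the replicate number as a block (adjusted p = 0.0897) and 1.21 without arrays 8 and 9, so its size rested on those arrays and on the block. Loss of p107 gave 0.05 ± 0.20 and loss of p130 -0.38 ± 0.22 (95% interval -0.83 to 0.06). Beside Rb1 loss, limma called none of the members of the 9 marker lists. At an unadjusted p under 0.05 lay 5 of the 64 tested markers, beside 1438 of all 12723 genes. The red cell markers summed to 113617 to 183590 without Rb1 and 106887 to 172144 with it, with 6 of 7 changes above 0 (median 0.09), and all 6 endothelial changes lay above 0 (median 0.11, 2 at an unadjusted p under 0.05). Their part in the changes of Ccne2, Ccna2 and Cdk2 was not tested.

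**Figure D5:**
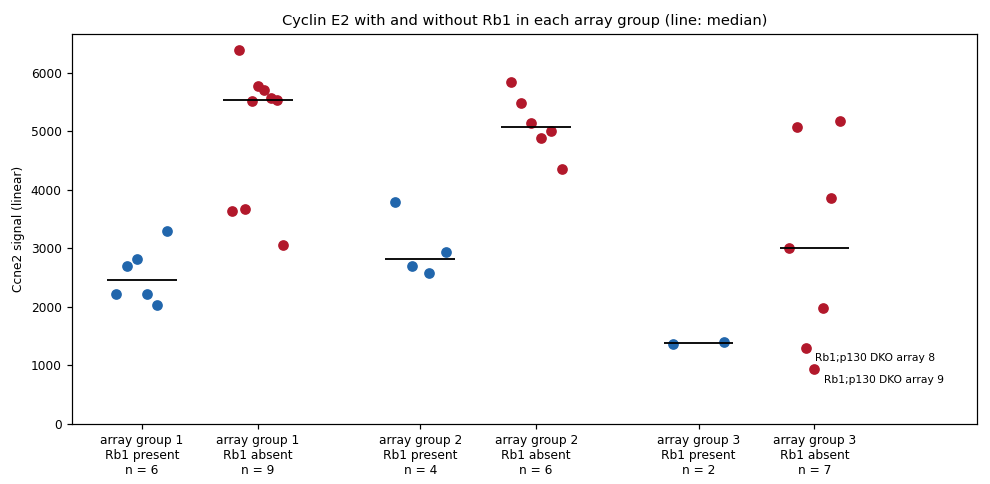
Ccne2 signal on each array (linear MAS5 signal from 0), split by array group and by the presence of Rb1, with the median as a line; arrays 8 and 9 of Rb1;p130 DKO are named. The arrays without Rb1 have the higher median in each array group, and arrays 8 and 9 (1300.9 and 925.1) sit at the bottom of array group 3.

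Ccna2, the cyclin that pairs with Cdk2 in S phase and with Cdk1 later, rose a little with Rb1 loss. Signals were 11712.9 and 14309.4 in wild type, 11403.8 in p107 KO, 13159.1, 11425.5 and 13124.3 in p130 KO, and 11087.4 to 14012.3 (median 12710.9) in the p107 and p130 double knockout. Without Rb1 they were 13266.7 and 13117.3 in Rb1 KO, 11975.6 to 16875.0 (median 14089.3) in Rb1;p130 DKO and 13047.0 to 18304.7 (median 15042.5) in the triple knockout. The Rb1 and p107 double knockout was highest by mean, with 14135.3, 18077.4, 15526.8, 17893.3 and 17959.3. Array group 2 held 4 of these 5 arrays, and there the triple knockout differed from them by 0.0 on the log2 scale (2 arrays against 4). The difference was 0.12 within array group 1 (1 array against 1). Of the 22 arrays without Rb1, 19 lay above the mean of the 12 with it and 12 above all of them.

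By mean the order of Ccna2 ran from the Rb1 and p107 double knockout (16718.4 ± 1793.0 SD, n = 5) through the triple knockout (15238.7 ± 1931.7, n = 6), the Rb1 and p130 double knockout (13918.5 ± 1719.5, n = 9), Rb1 KO (13192.0), wild type (13011.2), the p107 and p130 double knockout (12675.4 ± 1052.9, n = 6) and p130 KO (12569.6 ± 991.0, n = 3) to the p107 KO array. The steps on both sides of Rb1 KO exceeded its own SD (105.6, n = 2) but not that of the other group. The other steps were smaller than the SD of both groups, apart from the p107 KO array, which has none.

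The rise of Ccna2 was 0.23 ± 0.06 on the log2 scale (1.18-fold, limma adjusted p = 0.0315). Within array groups it was 0.28 (9 arrays against 6), 0.48 (6 against 4) and -0.02 (7 against 2), so it did not hold in array group 3. With array group as a block it was 0.26 (adjusted p = 0.00215). Leaving out 1 array ended the call in 7 of 34 fits: without array 1 of wild type (adjusted p = 0.0676), the p107 KO array (0.0834), array 2 of p130 KO (0.0559), arrays 1, 2 or 3 of the p107 and p130 double knockout (0.0538, 0.0695 and 0.0572) or array 4 of the triple knockout (0.0503), with changes of 0.21 to 0.23. With no filter on low signal the adjusted p was 0.0549. The second Ccna2 probe set gave 0.20 ± 0.07 (adjusted p = 0.169). In pairs of genotypes the brightest probe set was not called. Rb1 KO differed from wild type by 0.03 ± 0.17 and the Rb1 and p130 double knockout from p130 KO by 0.14 ± 0.11. The triple knockout differed from the p107 and p130 double knockout by 0.26 ± 0.10 (limma adjusted p = 0.531).

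Cdk2, the kinase of the E and A cyclins, was the other member that rose with Rb1 loss. Its signals were 1942.0 and 2682.1 in wild type, 1697.6 in p107 KO, 2010.9, 1960.8 and 1838.6 in p130 KO and 1478.9 to 2246.4 (median 1924.8) in the p107 and p130 double knockout. Without Rb1 they were 2600.3 and 2444.2 in Rb1 KO, 2241.9 to 2743.2 (median 2495.7) in Rb1;p130 DKO and 1918.2 to 3326.8 (median 2517.8) in the triple knockout. The Rb1 and p107 double knockout, at 2233.0, 2380.0, 1880.7, 1833.8 and 1696.4, stayed near the arrays with Rb1. Array group 2 held 4 of its 5 arrays. Of 22 arrays, 18 lay above the mean of those with Rb1 and 3 above all of them.

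Its order by mean began with Rb1 KO (2522.2), the triple knockout (2517.7 ± 487.3 SD, n = 6) and the Rb1 and p130 double knockout (2503.8 ± 169.1, n = 9), which differed by less than their spread. Wild type (2312.1) and the Rb1 and p107 double knockout (2004.8 ± 288.4, n = 5) followed, then p130 KO (1936.7 ± 88.6, n = 3), the p107 and p130 double knockout (1906.0 ± 271.5, n = 6) and the p107 KO array. Wild type lay above the Rb1 and p107 double knockout by more than the SD of the latter but less than its own (523.3, n = 2). The steps from there to the p107 and p130 double knockout were smaller than the SD of both neighbours.

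The rise of Cdk2 was 0.28 ± 0.07 (1.21-fold, limma adjusted p = 0.0354), and 0.30, 0.26 and 0.47 within the 3 array groups. With array group as a block it was 0.25 (adjusted p = 0.0243). The call was lost in 11 of 34 fits that left out 1 array, with changes of 0.25 to 0.27. The adjusted p was then 0.0618 without array 1 of wild type, 0.0637 without the p107 KO array, and 0.0653, 0.0658 and 0.0711 without arrays 1, 2 and 3 of p130 KO. It was 0.0547, 0.0657 and 0.0786 without arrays 1, 5 and 6 of the p107 and p130 double knockout, 0.0510 without array 2 of the Rb1 and p107 double knockout, and 0.0569 and 0.0521 without arrays 2 and 5 of the triple knockout. With the mean of its probe sets, 1 of them under the filter, it was 0.21 (adjusted p = 0.195).

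Between single genotypes Cdk2 was not called. All 9 Rb1;p130 DKO arrays lay above all 3 of p130 KO, by 0.36 ± 0.13 (adjusted p = 0.723), as did 0.574% of all genes. Rb1 KO differed from wild type by only 0.14 ± 0.20 (95% interval -0.26 to 0.55). The triple knockout was above the p107 and p130 double knockout by 0.39 ± 0.11 (limma adjusted p = 0.200, 6 of 6 arrays above the mean). It was above the Rb1 and p107 double knockout by 0.31 ± 0.12 (adjusted p = 0.660, 5 of 6). This last difference was 0.22 within array group 1 (1 array against 1) and 0.07 within array group 2 (2 against 4). Loss of p107 gave -0.14 ± 0.07 (adjusted p = 0.292).

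Cdk4 and Cdk6, the kinases of the D cyclins, were called in none of the 12 comparisons. Cdk4 ran from 3486.0 to 6407.2 over the series, with group means from 4253.8 ± 574.4 (SD, n = 5) in Rb1;p107 DKO to 4976.4 ± 908.5 (n = 3) in p130 KO, 2 groups whose arrays overlapped. Its changes were -0.05 ± 0.07 with Rb1 loss (95% interval -0.20 to 0.10), -0.05 ± 0.07 with p107 loss and 0.12 ± 0.08 with p130 loss. Cdk6 ran from 1265.7 to 2330.5 and stood at 2004.5 on the p107 KO array. Among the genotypes with 2 or more arrays, Cdk6 means ran from 1658.2 ± 233.1 (n = 6) in the triple knockout to 1922.4 ± 72.7 (n = 6) in p107;p130 DKO. Its changes were -0.10 ± 0.08 (95% interval -0.26 to 0.05), -0.02 ± 0.07 and 0.00 ± 0.08. The dimmest Cdk6 probe set in the fit, 1460291_at, gave 0.50 ± 0.23 with Rb1 loss (adjusted p = 0.406), unlike the other two.

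In the other pairs and the interaction, limma called none of the 9 members. The triple knockout against the p107 and p130 double knockout had 0 of 9 (3 at an unadjusted p under 0.05, with 0.377% of all genes called), and the Rb1 and p130 double knockout against p130 KO 0 of 9 (1, with 0.118%). Rb1 KO against wild type, with 2 arrays each, had 0 of 9 and none at an unadjusted p under 0.05 (0.00786% of all genes called). The p107 and p130 double knockout against p130 KO had 0 of 9 (1, with 0.0236%) and against wild type 0 of 9 (1, with 0.00786%). The triple knockout against the Rb1 and p107 double knockout had 0 of 9 (2, with 0.00786%) and against wild type 0 of 9 (2, with 0.0786%). In the order given, 766, 674, 438, 562, 249, 951 and 581 of all 12723 genes lay at an unadjusted p under 0.05.

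Around these genes, inhibitors of the kinases rose with Rb1 loss, where 1.75% of all genes were called higher. Of 5 tested CDK inhibitors 4 rose, with a list median of 0.52 beside -0.02 over all genes: Cdkn1a (1.19 ± 0.12), Cdkn2c (0.69 ± 0.08), Cdkn2d (0.52 ± 0.09) and Cdkn1b (0.45 ± 0.11). Cdkn1a and Cdkn1b encode p21 and p27, which bind cyclin and Cdk2 complexes, and Cdkn2c and Cdkn2d encode p18 and p19 inhibitors of Cdk4 and Cdk6. Their limma adjusted p-values were 7.32e-09, 2.11e-07, 2.80e-04 and 0.0170 for Cdkn1a, Cdkn2c, Cdkn2d and Cdkn1b. With p107 loss 1 of 5 rose, Cdkn1c (p57), by 0.61 ± 0.12 (adjusted p = 0.00808), where 0.417% of all genes were called higher.

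Against the same 1.75%, 3 of 10 E2F and DP factors rose with Rb1 loss, E2f1 (0.46 ± 0.07), E2f8 (0.54 ± 0.09) and E2f7 (0.42 ± 0.08), an activator and both atypical repressors of the family, with a list median of 0.10. Of 3 tested mitotic cyclin and Cdk1 genes, Cdk1, the kinase of mitosis, rose by 0.22 ± 0.04 (adjusted p = 0.00133). Of 12 other cyclins, Ccng2, an atypical cyclin, rose by 0.47 ± 0.12 (adjusted p = 0.0176). By limma 0 of 14 other CDKs, 0 of 9 regulators of kinase activity and 0 of 14 cyclin degradation genes were called with Rb1 loss (1, 2 and 2 at an unadjusted p under 0.05). At that unadjusted level lay 1438 of all 12723 genes. With p130 loss none of these lists had a called member, with 2 genes in all at an unadjusted p under 0.05. Of all 12723 genes, 1286 lay at that unadjusted level.

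The genes whose log2 signal followed each member most closely over the 34 arrays were read as a description, since arrays share genotype and array group. For Ccne1 the closest was Rbl1, the gene deleted in p107 knockouts (r = 0.81, rho = 0.70), and after subtraction of genotype means r was 0.01, so the likeness lay between genotypes. Ehbp1l1 came next (r = 0.75, and 0.33 after the same subtraction). For Ccne2 the closest were Jak2 and Rp2 (r = 0.85 each), and for Ccna2 Asf1b and H2ax (r = 0.87 each), which kept r of 0.79 to 0.88 after subtraction of genotype means. Asf1b is a histone chaperone of replication, and Jak2 the kinase of the erythropoietin receptor.

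For the remaining members the likeness also held after subtraction of genotype means (r = 0.57 to 0.95). Ccnd1 followed Med10 and Pcyt2 (r = 0.89 and 0.87), Ccnd2 Ipo13 and Mrpl4 (0.69 and 0.68), and Ccnd3 Apeh and Zfpm1 (0.85 and 0.81). Cdk2 followed Taf4 and Cables2 (0.73 and 0.72), Cdk4 Ppp1r14b and Zfp771 (0.94 each) and Cdk6 Anxa9 and Tars2 (0.72 and 0.69). Within array groups 1, 2 and 3, Cdk4 kept r of 0.96, 0.80 and 0.94 with Ppp1r14b. Other pairs were less even there: Ccnd2 gave 0.67, 0.17 and 0.83 with Mrpl4, and Cdk2 0.67, 0.47 and 0.65 with Cables2. Among the members themselves the closest pair was Ccnd2 and Ccne1 (r = 0.63, rho = 0.56) and the most opposed Ccne2 and Cdk4 (r = -0.68, rho = -0.64). Genotype held 71.6% of the variance of Ccne1 on the log2 scale, 55.3% of Cdk2, 52.3% of Ccna2, 46.3% of Ccnd2 and 30.7% of Ccne2, and 13.1 to 24.7% of the other 4 genes.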

How the data were processed

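Per the submitters' processing notes, the authors used MAS5 (GCOS 1.4), and they deposited 1 linear signal intensity for each probe set on each array, with no log2 step. The 2% trimmed mean of an array lay between 495.4 and 497.7 and its median between 80.6 and 115.9, with 45.6 to 53.3% of probe sets at 100 or more. Probe sets with 1 symbol in the platform annotation were used (34945 of 45037, with 932 of several symbols and 9160 unnamed left out). Each array was scaled so that its trimmed mean was 500, and log2(signal + 32) was used. The test covered genes at 100 or more on 2 or more arrays.

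limma 3.58.1 in R 4.3.3 (two-sided eBayes with an intensity trend) was fitted to all 34 arrays, with 1 mean per genotype for 8 pairs and 1 interaction and an additive fit for 3 terms, and tested on simulated data first. P-values were adjusted within each comparison over all genes, or over all probe sets where these were fitted on their own. The p107 KO has 1 array, so it entered no pair and took part in the additive fit. Array groups came from clustering log2 differences between the 2 brightest probe sets of 2997 genes, with their number set at 3.

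The 9 genes, the other lists and the array groups were chosen with earlier results of these data known. Named beside the 9 genes are the called members of each list, at most 4 per comparison, and the 2 genes most correlated with each member. Alternatives were pseudocounts of 1 and 100, quantile normalization, no filter, a filter at 200 on 6 arrays, averaging of a gene's probe sets, each probe set on its own, only the arrays compared, replicate number or array group as a block and leaving out each array. A fit without arrays 8 and 9 of Rb1;p130 DKO, alone or with the array group block, was added after the data were seen. Some list members were not analysed here.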

Additional observations from a re-analysis of the deposited data

Results flagged for a closer look

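On array 2 of the Rb1 and p107 double knockout, Ccne1 stood at 2452.4, apart from the other 4 arrays of that genotype (2902.6 to 3085.2). On the same array, Cdk6 stood at 1265.7, apart from the others (1791.8 to 1917.0). In both cases the gap to the nearest array exceeded the 95% critical value of Dixon's test. These were 2 of 36 groups of 4 to 10 arrays tested for the 9 genes, and chance alone marks about 1 in 20.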

How the results depend on the processing

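No called result changed sign under an alternative, while 200 of 4749 uncalled values of the 9 genes did. The 2 members called with Rb1 loss became 1 with no filter on low signal and 1 with the mean of all probe sets, 3 (with Ccne2) with the replicate block, with the array group block and without arrays 8 and 9 of Rb1;p130 DKO with or without that block, and 0 to 3 when 1 array was left out. The count with p107 loss was 1 to 2 when 1 array was left out. In the triple knockout against the Rb1 and p130 double knockout, 1 member was called, and 0 with the mean of all probe sets, with only the arrays compared, with the replicate block, and without arrays 8 and 9 of the double knockout with or without the array group block. It was 0 to 1 when 1 array was left out. With the array group block and those 2 arrays left out, 1 member, Ccne2, was called in the triple knockout against the p107 and p130 double knockout (0.83) and 1, also Ccne2, in the Rb1 and p130 double knockout against p130 KO (1.18), where 145 and 116 of all genes were called, beside 48 and 15 otherwise. Those arrays were left out for their low Ccne2, so these counts support no call of it. In the other 7 comparisons the count stayed at 0 under each alternative run. Of 45 pairs of arrays with the same replicate number, deviations from genotype means correlated at r = -0.29 to 0.43 (median 0.01), beside -0.44 to 0.44 for 282 pairs with other numbers, so the numbers pair no samples. With the replicate block Ccne1 changed by -0.44 (adjusted p = 0.0768) in the triple knockout against the Rb1 and p130 double knockout, and Ccne2 by 0.85 with Rb1 loss (adjusted p = 5.73e-04). The second Ccnd2 probe set of the report, 1430127_a_at, gave -0.73 (adjusted p = 0.130) with the block. The cause of these differences was not tested. The brightest probe set of each of the 9 genes lay far above the filter. Other Ccnd2, Ccnd3 and Cdk2 probe sets failed it. Ccnd2 probe set 1416123_at (47.4 to 154.2) and Cdk6 probe set 1460291_at (2.9 to 190.0) passed but lay near it, so low signal limits their changes.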
